A study of Mus musculus with 12 samples.

Results

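The proteasome subunit genes described here are the genes of the deposited count table whose symbol is Psma, Psmb, Psmc, Psmd or Psme followed by a number, with the immunoproteasome genes Psmb8, Psmb9 and Psmb10 left out. There were 40 such genes among 24421 in the table. They were followed across 4 groups of mouse embryonic fibroblasts (MEFs), each with 3 libraries.

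The proteasome is the large protease that degrades ubiquitin-tagged proteins in the cytosol and nucleus, among them short-lived regulators such as p53. Its barrel-shaped 20S core is built from rings of alpha and beta subunits, with the active sites inside. A 19S particle at the end of the barrel recognizes the ubiquitin chain, removes it, unfolds the substrate with a ring of ATPases and feeds it into the core.

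MEFs labelled Null were compared with TFEB/TFE3 DKO MEFs, in which Tfeb and Tfe3, the genes of transcription factors for lysosome and autophagy genes, were targeted by CRISPR editing. The paper describes sequencing of wild-type and DKO MEFs, and the labels do not say whether Null stands for wild type. Cells of each genotype were left without drug or were kept for 8 hours in 100 µM etoposide, a topoisomerase II poison that breaks DNA. The labels describe the controls as untreated and the methods of the paper as given DMSO. According to the paper these fibroblast lines were made immortal with SV40, which it names as a possible confounder for how stable p53 is. Each genotype was a single line, so that genotype and line cannot be told apart. RNA was sequenced after removal of ribosomal RNA, and the deposited values are raw counts per gene.

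The 12 libraries held 45577023 to 104120871 counts on genes. Levels are given as CPM, counts divided by library size, with the library size scaled by TMM, a method that assumes that most genes change little between libraries. Changes are log2 fold changes from edgeR with a standard error (SE), 3 libraries in each group, and were called when the p-value, adjusted over 15220 tested genes by the Benjamini-Hochberg method, was under 0.05. The labels do not say whether the replicates were separate cultures, so these p-values measure only the spread between the samples at hand. In bulk RNA, fewer cells of a kind and less RNA per cell cannot be told apart.

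The labels were checked on 4 genes. Tfeb stood at 38.9, 39.2 and 42.1 CPM in the Null control libraries and at 4.603, 6.09 and 4.68 CPM in the DKO control libraries. Tfe3 mRNA stood at 115, 109.9 and 114 CPM in Null control and at 94.1, 93.1 and 91.0 CPM in DKO control libraries. Both genes were lower in every DKO control library than in every Null control library, with log2 fold changes of -2.95 (adjusted p = 1.76e-13) and -0.29 (adjusted p = 1.06e-05). After etoposide the difference in Tfe3 mRNA between the genotypes was -0.0072 (adjusted p = 0.887). The p53 targets Cdkn1a and Mdm2 rose with etoposide in both genotypes, Cdkn1a by 2.94 in Null and 2.60 in DKO MEFs, and Mdm2 by 3.92 and 2.44.

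The cells were also checked against 10 fibroblast markers. These summed to 6791, 6789 and 6893 CPM in Null control, 3849.7, 3731 and 3724 CPM in Null etoposide, 10978, 11579 and 11022 CPM in DKO control and 4958, 5036 and 4692 CPM in DKO etoposide libraries. The sum was lower in every etoposide library than in every control library, and higher in DKO than in Null libraries under either condition. Vimentin (Vim) was the most abundant marker in the Null control group at a mean of 2390.2 CPM, while Lum and Dcn were under 3 CPM in every group mean and Thy1 averaged 0.0365 CPM in the DKO control group. The 10 markers of epithelial, blood, endothelial, muscle, nerve and liver cells summed to 59.4 CPM in the Null control, 114 in the Null etoposide, 17.7 in the DKO control and 37.9 in the DKO etoposide group. Their most abundant genes were Tubb3, at group means of 14.9 to 62.7 CPM, Des, at 0.386 to 36.3 CPM, and Cd68, at 1.44 to 11.96 CPM, while Myod1 and Alb had no counts in the control groups. The ribosomal precursor Rn45s took 2.20, 2.82 and 2.89% of the counts in Null control, 4.37, 3.81 and 4.28% in Null etoposide, 1.91, 1.95 and 1.66% in DKO control and 3.16, 3.58 and 2.98% in DKO etoposide libraries. Reads counted to no gene (no feature) made up 22.5, 24.2 and 22.9% in Null control and 27.3, 26.3 and 25.1% in Null etoposide libraries. They made up 21.1, 20.2 and 20.5% in DKO control and 22.3, 22.1 and 21.2% in DKO etoposide libraries. Within each genotype this share was higher in every etoposide library than in every control library. The part of these markers, of Rn45s and of these reads in the changes of the proteasome genes was not tested.

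Per kilobase of exon, genes of the 20S core and the 19S base had higher median levels than lid genes, activators and assembly chaperones. In Null control MEFs the median level was 126 CPM per kilobase over the 3 catalytic beta genes tested. It was 69.8 over the other 4 beta genes and 51.8 over 7 alpha genes. For the 19S base it was 72.4 over the 6 ATPases and 87.3 over the 3 other subunits in the list. It was 41.6 over the 8 lid genes in the list, 25.02 over the 4 activators and 12.2 over the 3 chaperones of the base. Psmb4 had the highest level, at 172 CPM per kilobase, followed by Psmb5 at 155 and Psmb6 at 126, and Psmd9 the lowest of the 38 genes tested, at 6.65. Exon length was taken from all annotated transcripts of a gene together, which for Psmd9 came to 7248 bases, so that genes with long annotated transcripts have low values on this scale.

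**Figure D1:**
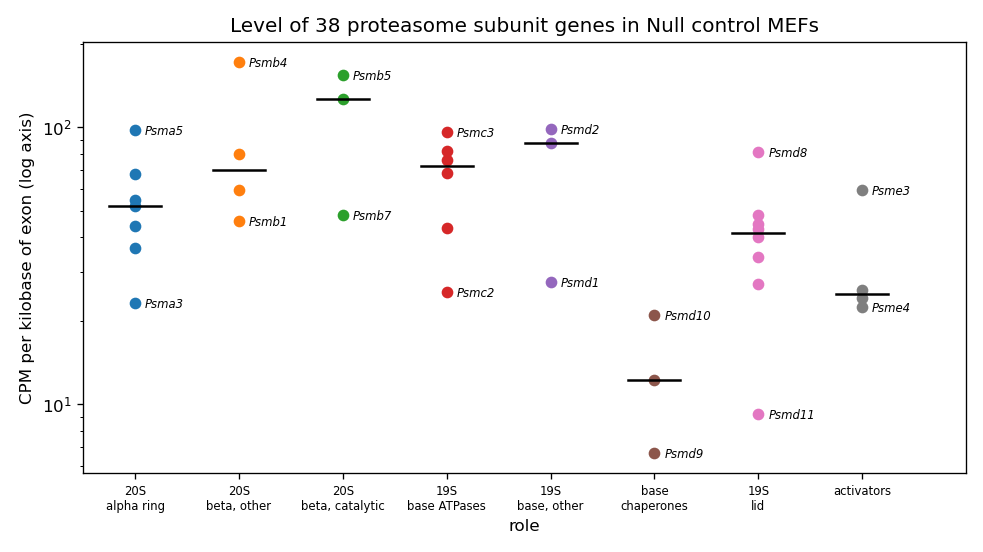
Level of 38 proteasome subunit genes in Null control MEFs by role, on a log axis in CPM per kilobase of exon. Each point is the mean of 3 libraries for 1 gene, bars are medians of a role, and the lowest and highest gene of each role are named. Levels run from 6.65 for Psmd9 to 172 for Psmb4.

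Only Psma8 and Psmb11 fell under the filter on low counts, and neither was tested. Psma8, an alpha subunit of the testis, had 0, 0 and 0 counts in Null control, 0, 0 and 0 in DKO control, 4, 8 and 0 in Null etoposide and 1, 2 and 9 in DKO etoposide libraries. Psmb11, the catalytic subunit of the thymus proteasome, had 7, 4 and 0, then 1, 0 and 1, then 3, 9 and 23 and then 2, 3 and 9 counts in the groups in that order. A count of 3 in a library corresponds to 0.0298 to 0.0607 CPM, and the highest value of either gene was 0.335 CPM, for Psmb11 in Null etoposide replicate 3.

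As a whole the proteasome genes moved little. The ratio of the highest to the lowest group mean ran from 1.04 for Psma6, an alpha subunit, to 1.77 for Psmc1, an ATPase, with a median of 1.29 over 38 genes. Within a group the 3 libraries differed by a median coefficient of variation of 3.07%, with a highest value of 17.7% for Psma3 in the DKO control group. The DKO etoposide group had the highest mean for 14 genes, the Null control group for 10, and the Null etoposide and DKO control groups for 7 each. Summed over all 40 genes, the level was 5703, 5673 and 5559.6 CPM in Null control and 5668, 5902 and 5903 CPM in Null etoposide libraries. The sum was 5437, 5389 and 5406 CPM in DKO control and 5886, 6003 and 6193 CPM in DKO etoposide libraries. The sums of the Null control and Null etoposide libraries overlapped, and those of the DKO libraries did not. As a share of all counts on genes, without TMM, the 40 genes took 0.553, 0.546 and 0.538% in Null control and 0.616, 0.640 and 0.640% in Null etoposide libraries. They took 0.483, 0.476 and 0.483% in DKO control and 0.638, 0.642 and 0.661% in DKO etoposide libraries. On this scale the conditions did not overlap in either genotype.

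Directions of small changes depended on the scale. With library size alone in place of TMM, the median over all tested genes moved by 0.17 for etoposide in Null MEFs, 0.27 for etoposide in DKO MEFs, -0.12 for DKO against Null without etoposide, -0.015 after etoposide and 0.10 for the interaction. A scale moves all genes alike, so the difference between the median of the proteasome genes and that of all genes hardly depends on it. With TMM this difference was -0.039 for etoposide in Null MEFs, 0.0092 for etoposide in DKO MEFs, -0.014 for DKO against Null without etoposide, 0.062 after it and 0.080 for the interaction. The filter on low counts, which sets the genes compared with, changed it more. With genes kept by a mean of at least 1 CPM it was 0.10 for etoposide in Null MEFs, 0.12 for etoposide in DKO MEFs and -0.015 for DKO against Null after etoposide. With no filter other than a count above 0 in 1 library it was -0.30 for etoposide in Null MEFs and -0.15 in DKO MEFs.

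The first comparison asked what etoposide did in Null MEFs. The proteasome genes split between both directions: 11 of 38 were higher and 12 were lower, with 15 not past the threshold. Among all genes tested, 41.7% were higher and 36.8% lower, against 28.9% and 31.6% of the proteasome genes. The median change was 0.028 (quartiles -0.15 and 0.17) beside 0.067 over all genes (quartiles -0.41 and 0.88). No proteasome gene changed at least 2-fold, as 30.3% of all genes did. Psmc1 (0.55), Psmc3 (0.40) and Psma4 (0.37) rose the most, and Psme4 (-0.49), Psme3 (-0.44) and Psmb7 (-0.37) fell the most. With library size alone 25 genes were higher and 7 lower, beside 7656 and 4350 of all genes. With genes kept by a mean of at least 1 CPM 19 were higher and 7 lower, beside 4987 and 4830 of all genes so kept. The median turned to -0.029 without Null_control replicate 3, and to -0.011 without Null_etoposide replicate 2 and without Null_etoposide replicate 3.

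In DKO MEFs, more proteasome genes rose than fell with etoposide. Of 38 genes 21 were higher and 6 lower, or 55.3% and 15.8%, where 44.0% of all genes were higher and 31.3% lower. Their median was 0.15 (quartiles -0.012 and 0.32), beside 0.14 over all genes. Again no member changed at least 2-fold, while 26.3% of all genes did. The strongest rises were those of Psma1 (0.42), Psmb6 (0.41) and Psmd8 (0.40), and the strongest falls those of Psme4 (-0.70), Psme2 (-0.22) and Psmd14 (-0.22), of which Psme2 and Psmd14 turned to 0.052 and 0.053 with library size alone. On that scale 35 genes were higher and 1, Psme4, was lower, and of all genes 9351 were higher and 2975 lower.

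DKO against Null MEFs without etoposide compared the genotypes at rest. Here 11 proteasome genes were higher and 16 lower in DKO cells, or 28.9% and 42.1%, where 33.4% of all genes were higher and 34.1% lower. The median was -0.036, beside -0.022 over all genes, and no member differed at least 2-fold, as 19.3% of all genes did. Psmd10 (0.58), Psma4 (0.40) and Psmd13 (0.33) were highest in DKO cells relative to Null cells, and Psma5 (-0.46), Psmd3 (-0.43) and Psmd4 (-0.37) were lowest. The number of higher proteasome genes fell to 7 without DKO_control replicate 1. Higher genes then made up 31.8% of the proteasome calls and 49.0% of all calls. With 1 library left out, 4794 to 4907 of all genes were higher, against 5080 with all 12 libraries. With library size alone 5 proteasome genes were higher and 23 lower, beside 3997 higher and 6473 lower among all genes.

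After etoposide the balance between genotypes was the other way. In DKO cells 16 proteasome genes were higher and 8 lower than in Null cells, or 42.1% and 21.1%, where 36.9% of all genes were higher and 35.2% lower. The median was 0.059, beside -0.0039 over all genes, and it turned to -0.0012 with the size factors of DESeq2, with 12 genes higher and 11 lower, beside 4991 and 5866 of all genes. No member differed at least 2-fold, as 21.4% of all genes did. Psmd9 (0.45), Psmd10 (0.42) and Psmd13 (0.38) were the highest in DKO cells, and Psmc1 (-0.51), Psme1 (-0.29) and Psmd3 (-0.24) the lowest.

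The interaction, which is the etoposide change in DKO MEFs minus that in Null MEFs, tests whether the genotypes differ in their response. It was above 0 for 18 of 38 proteasome genes and below 0 for 6 at the threshold, or 47.4% and 15.8%, where 29.9% of all genes were above and 24.7% below. The median was 0.13, beside 0.049 over all genes. A difference of at least 2-fold was seen for no member and for 13.4% of all genes. Psme3 (0.66), Psmb6 (0.45) and Psma3 (0.42) had the highest values, and Psme2 (-0.26), Psmc3 (-0.26) and Psmc1 (-0.23) the lowest. The split was 13 and 9 with the size factors of DESeq2, where it was 3862 and 4236 over all genes, and 26 and 2 with library size alone, where it was 5782 and 3110. The comparisons share libraries, so their counts are not independent of each other.

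**Figure D2:**
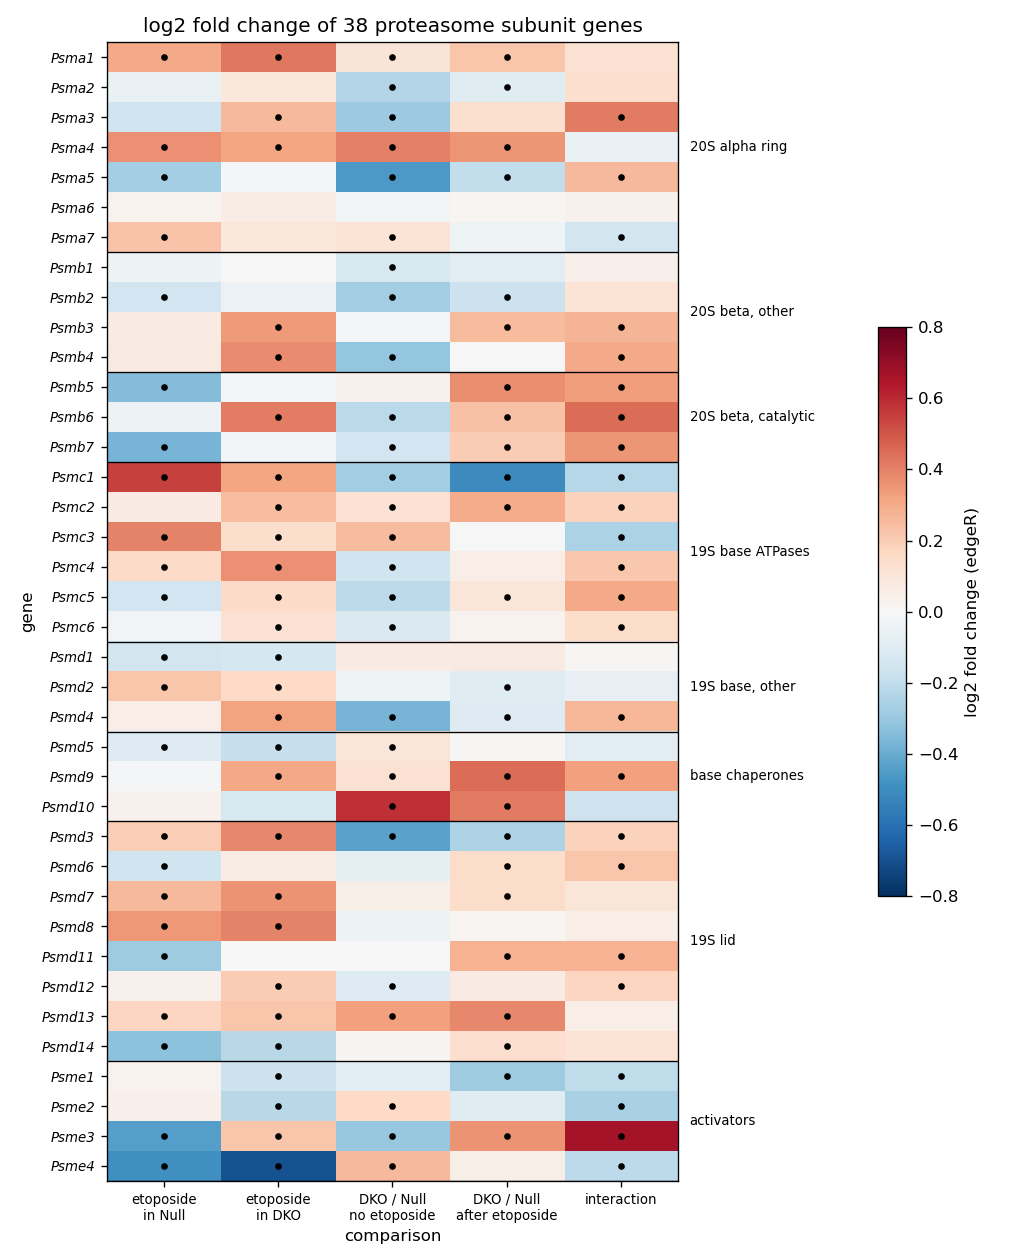
Log2 fold change of 38 proteasome subunit genes (vertical axis, grouped by role) in 5 comparisons (horizontal axis), with colour from blue (negative) through white (0) to red (positive) and dots where the adjusted p was under 0.05. The etoposide columns hold 11 higher and 12 lower genes in Null MEFs, where 41.7% of all genes were higher and 36.8% lower. They hold 21 higher and 6 lower genes in DKO MEFs, where 44.0% of all genes were higher and 31.3% lower. With library size alone these were 25 and 7 in Null MEFs, beside 7656 and 4350 of 15220 genes. In DKO MEFs they were 35 and 1 on that scale, beside 9351 and 2975.

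The catalytic beta genes differed between the genotypes in their response to etoposide. Psmb5 encodes the chymotrypsin-like site, Psmb6 the caspase-like site and Psmb7 the trypsin-like site of the core. Psmb5 stood at 139.7, 137 and 139.8 CPM in Null control, 106, 104 and 117 CPM in Null etoposide, 146, 144 and 137 CPM in DKO control and 135, 145 and 144 CPM in DKO etoposide libraries. The Null etoposide libraries lay below all 9 others. Psmb5 fell by 0.35 in Null MEFs (log2 -0.35, SE 0.045, adjusted p = 2.16e-06), a value that was -0.18 with library size alone. Its change in DKO MEFs was -0.010 (adjusted p = 0.845), or 0.26 with library size alone. The interaction was 0.34 (SE 0.063, adjusted p = 2.40e-04).

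Psmb6 rose with etoposide in DKO MEFs. Its levels were 239, 236 and 236 CPM in Null control and 218, 233 and 239 CPM in Null etoposide libraries, which overlapped, and 207, 207 and 197 CPM in DKO control and 262, 270.1 and 280.3 CPM in DKO etoposide libraries, which did not. The DKO etoposide libraries were the highest of all 12 and the DKO control libraries the lowest. Psmb6 rose by 0.41 in DKO MEFs (SE 0.039, adjusted p = 7.82e-08), and its change in Null MEFs was -0.040 (adjusted p = 0.356), or 0.0049 with the size factors of DESeq2 and 0.13 with library size alone. The interaction was 0.45 (SE 0.056, adjusted p = 3.26e-06).

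Psmb7 fell with etoposide in Null MEFs. It stood at 171, 167 and 159 CPM in Null control, 125, 134 and 125 CPM in Null etoposide, 148, 149.7 and 149 CPM in DKO control and 143, 145 and 153 CPM in DKO etoposide libraries. Null control libraries were the highest and Null etoposide libraries the lowest, and the DKO libraries of both conditions overlapped between them. The fall in Null MEFs was -0.37 (SE 0.040, adjusted p = 2.59e-07), or -0.20 with library size alone. The change in DKO MEFs was -0.019 (adjusted p = 0.677), or 0.25 with library size alone, and the interaction was 0.35 (adjusted p = 5.63e-05). After etoposide all 3 catalytic genes were higher in DKO than in Null MEFs, Psmb5 by 0.37, Psmb6 by 0.23 and Psmb7 by 0.20. Of all genes 36.9% were called higher there. The libraries of these 3 genes did not overlap, and the share of all genes without overlap was not counted. Without etoposide Psmb6 (-0.22) and Psmb7 (-0.15) were lower in DKO MEFs, and the value of Psmb5 was 0.035 (adjusted p = 0.513), or -0.086 with library size alone. Of the 75-base stretches of the Psmb5 transcripts, 36.8% also occur in other genes, mostly Gm3375, and 109 of 899 exon bases overlap Mir686 on the same strand. For Psmb7, 405 of 3421 exon bases overlap exons of Nek6 on the other strand.

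**Figure D3:**
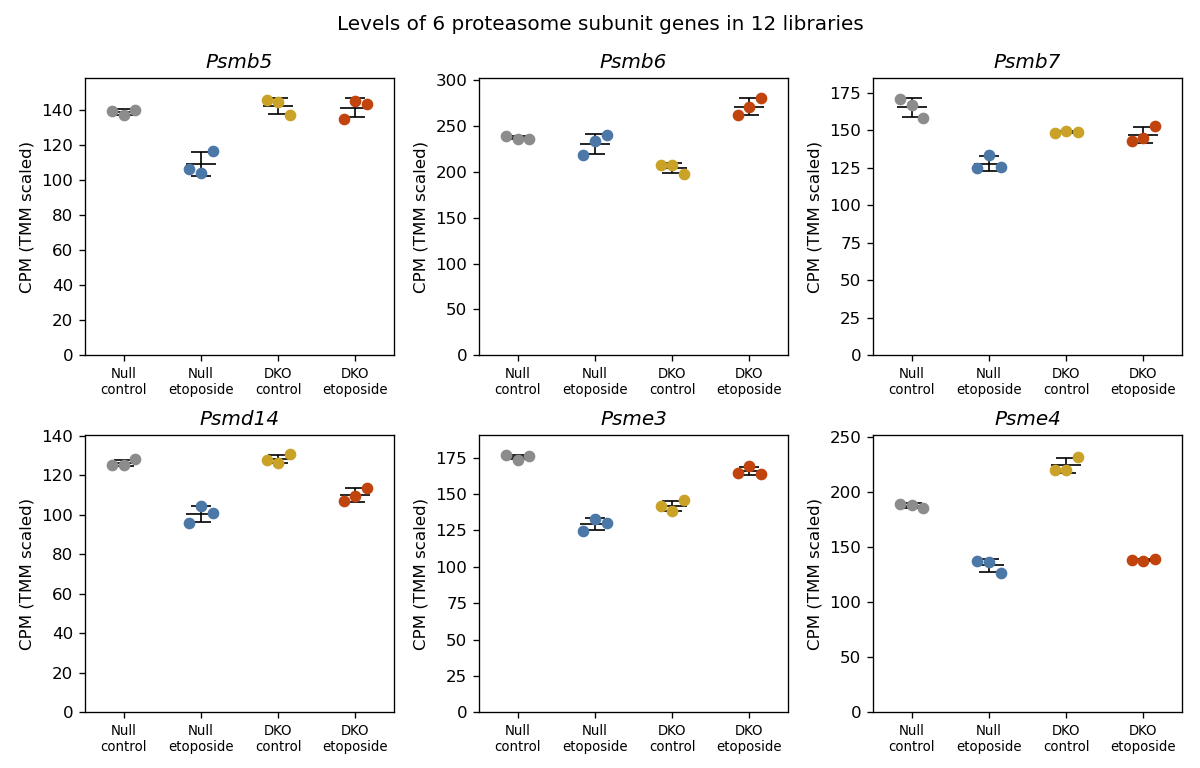
CPM after TMM scaling of 6 proteasome subunit genes in each of 12 libraries, with 1 point per library and bars for the mean and SD of 3 libraries. The vertical axes start at 0. Psmb5, Psmb7 and Psme3 were lowest in Null etoposide libraries, Psmb6 was highest in DKO etoposide libraries, and Psme4 and Psmd14 were lower after etoposide in both genotypes; with library size alone the DKO change of Psmd14 was 0.053.

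The promoters of Psmb5 and Psmb6 are shown because these catalytic genes changed in different genotypes and their windows hold the same motif. The sequences are from RefSeq on GRCm38.p6 and run from 250 bases before to 50 bases after the annotated start, and 33 of the 40 genes had at least 1 such window, 36 windows in all. Psma8, Psmb1, Psmb2, Psmb7, Psmc3, Psmd3 and Psmd7 had none. The motif is TGACNNNGC, the core letters bound by NFE2L1 and NFE2L2, searched on both strands and printed in capitals. It was found in 6 of 36 windows (16.7%) and in 13.2% of 20788 promoters in all. Those 6 belong to Psmb5, Psmb6, Psmc6, Psmd9, Psmd12 and Psme4. The windows printed here and for Psmd14 and Psme3 were chosen after the values of these genes were seen. The Psmb5 window is chr14:54617946-54618245 on the minus strand and the Psmb6 window chr11:70525107-70525406 on the plus strand. The motif starts 47 bases before the start of Psmb5 and 9 bases before that of Psmb6.
Psmb5: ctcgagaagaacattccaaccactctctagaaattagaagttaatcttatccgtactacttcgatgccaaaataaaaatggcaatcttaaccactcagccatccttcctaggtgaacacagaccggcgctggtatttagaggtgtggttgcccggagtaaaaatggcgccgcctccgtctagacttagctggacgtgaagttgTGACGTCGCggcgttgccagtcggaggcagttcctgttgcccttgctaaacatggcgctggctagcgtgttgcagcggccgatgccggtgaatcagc
Psmb6: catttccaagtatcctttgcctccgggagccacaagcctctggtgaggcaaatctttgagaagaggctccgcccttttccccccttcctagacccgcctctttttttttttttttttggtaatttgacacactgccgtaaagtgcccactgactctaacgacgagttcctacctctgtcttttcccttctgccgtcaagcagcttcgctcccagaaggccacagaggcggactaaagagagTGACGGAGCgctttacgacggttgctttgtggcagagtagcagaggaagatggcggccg

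The calls of the 4 beta genes without an active site depended on the scale in Null MEFs. With TMM, Psmb2 was lower with etoposide (-0.15, or 0.016 with library size alone), and Psmb1 (-0.039), Psmb3 (0.069) and Psmb4 (0.072) were not past the threshold. With library size alone Psmb1 (0.13), Psmb3 (0.24) and Psmb4 (0.24) were higher and past it, and Psmb4 was also past it with the size factors of DESeq2 (0.12). In DKO MEFs Psmb3 (0.34) and Psmb4 (0.38) rose. Both had an interaction above 0, of 0.27 (adjusted p = 0.0185) and 0.30 (adjusted p = 1.83e-04), but that of Psmb3 was 0.21 and not past the threshold with the size factors of DESeq2. Without etoposide Psmb1 (-0.13), Psmb2 (-0.28) and Psmb4 (-0.31) were lower in DKO than in Null MEFs.

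The alpha ring, which forms the gate of the core, held genes that moved in each direction. Psma1 stood at 129, 135 and 127 CPM in Null control, 156, 166 and 161 CPM in Null etoposide, 142, 138 and 140.2 CPM in DKO control and 185, 180.3 and 198 CPM in DKO etoposide libraries. It rose with etoposide in both genotypes without overlap, by 0.30 in Null (adjusted p = 3.40e-06) and by 0.42 in DKO MEFs (adjusted p = 6.76e-08), and the interaction was 0.12 (adjusted p = 0.0833), or 0.23 and past the threshold with library size alone. Its difference between genotypes without etoposide, 0.10 (adjusted p = 0.0356), was -0.019 with library size alone. That call was lost without Null_control replicate 1 (0.093), Null_control replicate 3 (0.083), DKO_control replicate 1 (0.085) or DKO_control replicate 3 (0.10).

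Psma4 was higher after etoposide and higher in DKO cells. Its levels were 135, 129 and 125 CPM in Null control, 165, 172 and 165 CPM in Null etoposide, 175, 167 and 173 CPM in DKO control and 204, 205 and 232 CPM in DKO etoposide libraries. Null control libraries were the lowest of the 12 and DKO etoposide libraries the highest, and the DKO control and Null etoposide libraries overlapped between them. The rise with etoposide was 0.37 in Null (adjusted p = 2.82e-06) and 0.32 in DKO MEFs (adjusted p = 1.82e-05), and the interaction -0.051 (adjusted p = 0.560), or 0.054 with library size alone. DKO cells exceeded Null cells by 0.40 without and 0.35 after etoposide.

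Psma5 fell in Null MEFs, where Psma1 and Psma4 rose. It stood at 131, 127 and 129 CPM in Null control, 104, 109 and 107 CPM in Null etoposide, 92.1, 92.4 and 97.3 CPM in DKO control and 89.3, 95.0 and 94.8 CPM in DKO etoposide libraries. Null control libraries were the highest, Null etoposide libraries were next, and the DKO libraries of both conditions lay below them and overlapped. The fall in Null MEFs was -0.27 (adjusted p = 3.62e-06), or -0.10 with library size alone. The change in DKO MEFs was -0.013 (adjusted p = 0.766), or 0.26 with library size alone, and the interaction was 0.26 (adjusted p = 4.43e-04). DKO MEFs were lower, at -0.46 without etoposide (adjusted p = 8.25e-09) and at -0.20 after it (adjusted p = 1.28e-04). Of its 75-base stretches, 35.2% also occur in other genes, mostly Gm8394.

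The values of Psma3, another alpha subunit, depended on 1 library. Its levels were 90.0, 91.7 and 88.8 CPM in Null control, 83.3, 77.1 and 81.2 CPM in Null etoposide, 58.5, 80.5 and 81.7 CPM in DKO control and 82.6, 86.2 and 94.6 CPM in DKO etoposide libraries. DKO_control replicate 1 lay below the other 11 libraries. Psma3 was higher after etoposide in DKO MEFs by 0.26 (SE 0.089, adjusted p = 0.0156), but by 0.087 without that library (adjusted p = 0.141) and by 0.19 without DKO_etoposide replicate 3 (adjusted p = 0.101). DKO against Null without etoposide went from -0.29 to -0.16 without DKO_control replicate 1, and the interaction from 0.42 to 0.26. Its change in Null MEFs was -0.16 (adjusted p = 0.104), or 0.0056 with library size alone. With DESeq2 the adjusted p of the interaction was 0.0514, and with limma-trend the adjusted p of the rise in DKO MEFs was 0.0603. Of its 75-base stretches, 14.3% also occur elsewhere. The remaining alpha genes were Psma2, Psma6 and Psma7. Psma2 was lower in DKO cells without etoposide (-0.23). Psma7 was higher after etoposide in Null MEFs (0.23). It was also higher in DKO cells without etoposide and had an interaction of -0.15, calls that were not kept with library size alone. Psma6 passed the threshold in no comparison with TMM, with values of -0.020 to 0.059. On the scale of library size alone Psma6 was past it with etoposide in Null (0.19) and DKO MEFs (0.33) and in DKO against Null MEFs without etoposide (-0.14).

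All 6 ATPases of the 19S base, the motor that unfolds substrates, rose with etoposide in DKO MEFs, as 44.0% of all genes did, by 0.12 (Psmc6) to 0.37 (Psmc4), and the call of Psmc6 was not kept in every setting. In Null MEFs Psmc1, Psmc3 and Psmc4 rose, Psmc5 fell (-0.15, or 0.015 with library size alone), and Psmc2 (0.064) and Psmc6 (-0.025) did not pass the threshold. Both were higher and past it with library size alone (0.23 and 0.14), Psmc2 also with the size factors of DESeq2 (0.11). Psmc1 stood at 137, 131 and 128 CPM in Null control, 189.7, 192 and 198 CPM in Null etoposide, 112, 107 and 109 CPM in DKO control and 136, 135 and 137 CPM in DKO etoposide libraries. The Null etoposide libraries were above the other 9 and the DKO control libraries were the lowest. The rise was 0.55 in Null MEFs (SE 0.035, adjusted p = 2.94e-10), a 1.46-fold change, and 0.32 in DKO MEFs (SE 0.035, adjusted p = 5.32e-07). The interaction was -0.23 (adjusted p = 8.69e-04), and DKO MEFs were lower, at -0.28 without and -0.51 after etoposide (adjusted p = 1.12e-09).

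Psmc3 shared the larger rise in Null cells. Its levels were 256, 251 and 246 CPM in Null control, 321, 332 and 338 CPM in Null etoposide, 305, 298 and 296 CPM in DKO control and 324, 326 and 342 CPM in DKO etoposide libraries. The genotypes were apart without etoposide, DKO higher, and overlapped after it. Psmc3 rose by 0.40 in Null (adjusted p = 1.24e-08) and 0.14 in DKO MEFs (adjusted p = 0.00132), with an interaction of -0.26 (adjusted p = 2.51e-04). The interaction of the other 4 ATPases was above 0, at 0.18 for Psmc2, 0.21 for Psmc4, 0.30 for Psmc5 and 0.15 for Psmc6 (adjusted p = 0.0494), where 29.9% of all genes were above 0 and 24.7% below. With the size factors of DESeq2, those of Psmc4 and Psmc5 were past the threshold and those of Psmc2 and Psmc6 were not.

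The 3 other subunits of the base in the list behaved in different ways. Psmd1, a scaffold subunit, was lower with etoposide in Null (-0.15) and DKO MEFs (-0.14), values that became 0.022 and 0.13 with library size alone. Psmd2, the other scaffold subunit, was higher in both (0.22 and 0.16). Psmd4, the ubiquitin receptor also called Rpn10, stood at 247, 243 and 246 CPM in Null control, 246, 259 and 259 CPM in Null etoposide, 192, 190.3 and 186 CPM in DKO control and 232, 235 and 244 CPM in DKO etoposide libraries. The DKO control libraries were the lowest of the 12. Psmd4 rose by 0.32 in DKO MEFs (SE 0.034, adjusted p = 2.34e-07), and the interaction was 0.27 (adjusted p = 1.55e-04). Its change in Null MEFs was 0.054 (adjusted p = 0.151), but 0.10 with the size factors of DESeq2 and 0.22 with library size alone, both past the threshold. It was lower in DKO than in Null MEFs, with values of -0.37 without and -0.10 after etoposide.

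Among the 8 lid genes in the list, 4 rose and 3 fell with etoposide in Null MEFs, and 5 rose and 1 fell in DKO MEFs. Of all genes 41.7% rose and 36.8% fell in Null MEFs, and 44.0% rose and 31.3% fell in DKO MEFs. With library size alone the lid genes split 5 and 2 in Null MEFs, beside 7656 higher and 4350 lower of 15220 genes. In DKO MEFs they split 7 and 0 on that scale, beside 9351 and 2975. Psmd14 encodes Rpn11, the deubiquitinase that removes the ubiquitin chain from the substrate. Its levels were 125, 125 and 128 CPM in Null control, 96.0, 104 and 101 CPM in Null etoposide, 128, 126 and 130.4 CPM in DKO control and 107, 109.6 and 114 CPM in DKO etoposide libraries. Every etoposide library lay below every control library. Psmd14 was lower, at -0.33 in Null MEFs (SE 0.037, adjusted p = 4.28e-07) and at -0.22 in DKO MEFs (SE 0.037, adjusted p = 5.49e-05). With library size alone the Null value was -0.16, but the DKO value was 0.053. The interaction was 0.11 (adjusted p = 0.0884), or 0.13 without Null_etoposide replicate 2 and 0.22 with library size alone, both past the threshold. DKO MEFs were higher after etoposide by 0.13 (adjusted p = 0.00424), a call lost with the size factors of DESeq2 (0.074). Without etoposide the difference was 0.023, and -0.098 with library size alone.

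The promoter of Psmd14 is shown because this gene fell in both genotypes with TMM, while its DKO value was 0.053 with library size alone. Its window, chr2:61711444-61711743 on the plus strand of GRCm38.p6 (RefSeq), holds CCAAT, the motif of NF-Y, 3 times, in capitals. The motif was searched on both strands and reads ATTGG on the minus strand, and the last pair of matches overlap each other in the letters CCAATTGG. CCAAT was found in 13 of 36 windows of proteasome genes (36.1%) and in 38.0% of 20788 promoters, and it overlapped neither TGACNNNGC nor CACGTG in any window of these genes.
Psmd14: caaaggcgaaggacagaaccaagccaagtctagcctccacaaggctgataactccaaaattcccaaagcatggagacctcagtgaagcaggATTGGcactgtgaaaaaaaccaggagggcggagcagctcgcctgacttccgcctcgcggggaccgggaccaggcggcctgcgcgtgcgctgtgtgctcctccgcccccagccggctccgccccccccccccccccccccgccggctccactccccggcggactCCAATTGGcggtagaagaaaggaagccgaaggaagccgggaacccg

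Psmd3 stood at 213, 217 and 210.0 CPM in Null control, 245, 246 and 244 CPM in Null etoposide, 157, 166 and 152 CPM in DKO control and 215, 209 and 197 CPM in DKO etoposide libraries. Null etoposide libraries were the highest and DKO control libraries the lowest of this lid gene. It rose with etoposide by 0.20 in Null (adjusted p = 2.17e-04) and 0.38 in DKO MEFs (adjusted p = 1.80e-07), and it was lower in DKO MEFs, with values of -0.43 without and -0.24 after etoposide. The interaction was 0.18 (adjusted p = 0.0101), and it was not past the threshold with DESeq2 (adjusted p = 0.0503) or with the size factors of DESeq2 in edgeR (0.12).

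Psmd8, a lid subunit, rose in both genotypes. Its levels were 252, 246 and 247 CPM in Null control, 300.4, 316 and 330.4 CPM in Null etoposide, 248, 243 and 234 CPM in DKO control and 317, 313 and 326 CPM in DKO etoposide libraries. Every etoposide library was above every control library, and the genotypes overlapped under each condition. The rise was 0.34 in Null (adjusted p = 2.77e-07) and 0.40 in DKO MEFs (adjusted p = 6.07e-08), and the interaction 0.053 (SE 0.053, adjusted p = 0.431), or -0.010 with the size factors of DESeq2 and 0.16, past the threshold, with library size alone.

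Psmd13, another lid subunit, was higher in DKO MEFs and higher after etoposide. It stood at 91.7, 90.9 and 92.2 CPM in Null control, 99.0, 104 and 107 CPM in Null etoposide, 116, 114 and 115 CPM in DKO control and 129.8, 134 and 139 CPM in DKO etoposide libraries. The 4 groups did not overlap, and every DKO library was above every Null library. DKO MEFs were higher by 0.33 without (adjusted p = 4.56e-07) and 0.38 after etoposide (adjusted p = 6.12e-08), and etoposide raised the gene by 0.17 in Null and 0.22 in DKO MEFs. The genotypes differed by 0.21 and 0.37 and the rises were 0.34 and 0.49 with library size alone. Exons of Sirt3 on the other strand overlap 342 of its 3377 exon bases. Of the other lid genes, Psmd7 rose in both genotypes (0.26 and 0.36) and Psmd12 rose in DKO MEFs (0.20). Psmd6 (-0.16, or 0.0081 with library size alone) and Psmd11 (-0.28, or -0.11) fell in Null MEFs. Psmd11 had an interaction of 0.28 (adjusted p = 0.00108). That of Psmd6 was also above 0, and both calls were kept in every setting.

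Psmd5, Psmd9 and Psmd10 are named like subunits but encode chaperones that help to assemble the base and are absent from the finished particle. All 3 were higher in DKO than in Null MEFs without etoposide, as were 33.4% of all genes, though with library size alone Psmd5 went from 0.095 to -0.026 and Psmd9 from 0.12 to 0.0026. Psmd10, also called gankyrin, stood at 30.6, 33.3 and 28.7 CPM in Null control, 30.1, 33.6 and 31.2 CPM in Null etoposide, 48.7, 43.9 and 46.3 CPM in DKO control and 40.8, 44.7 and 41.2 CPM in DKO etoposide libraries. Every DKO library was above every Null library, and the 2 conditions overlapped within each genotype. The difference was 0.58 without etoposide (SE 0.060, adjusted p = 1.84e-07), a 1.497-fold change, and 0.42 after it (SE 0.060, adjusted p = 8.19e-06). With etoposide it changed by 0.035 in Null MEFs (adjusted p = 0.604) and by -0.13 in DKO MEFs (adjusted p = 0.0568), or by 0.20 and 0.14, both past the threshold, with library size alone. The DKO value passed the threshold without DKO_control replicate 2 (-0.20) and without DKO_etoposide replicate 2 (-0.19), and the interaction of -0.16 (adjusted p = 0.112) did so without Null_control replicate 2 (-0.22) and without DKO_etoposide replicate 2 (-0.22). With the size factors of DESeq2 both passed it, at -0.15 and -0.23, as did the interaction of Psmd5, at -0.15 in place of -0.084.

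Psmd9 was high in 1 group. Its levels were 50.5, 46.7 and 47.3 CPM in Null control, 47.2, 47.8 and 48.0 CPM in Null etoposide, 54.9, 50.8 and 52.0 CPM in DKO control and 63.2, 66.3 and 65.6 CPM in DKO etoposide libraries. The DKO etoposide libraries were above the other 9. Psmd9 rose with etoposide by 0.31 in DKO MEFs (adjusted p = 2.95e-06), its change in Null MEFs was -0.017 (adjusted p = 0.716), or 0.029 with the size factors of DESeq2 and 0.15 with library size alone, and the interaction was 0.33 (adjusted p = 1.24e-04). Its higher level in DKO MEFs without etoposide was no longer past the threshold without Null_control replicate 2 (0.10) or without DKO_control replicate 1 (0.085). The antisense gene Gm26745 overlaps 1849 of its 7248 exon bases.

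The activators, which can cap the core in place of the 19S particle, included the highest interaction and the largest fall with etoposide. Psme3 encodes PA28 gamma, a nuclear cap that opens the core without ubiquitin. It stood at 177, 174 and 176 CPM in Null control, 125, 133 and 130.2 CPM in Null etoposide, 141, 139 and 146 CPM in DKO control and 165, 169 and 164 CPM in DKO etoposide libraries. The 4 groups did not overlap: Null control libraries were the highest, DKO etoposide libraries next, then DKO control, and Null etoposide libraries the lowest. Psme3 fell by 0.44 in Null MEFs (log2 -0.44, SE 0.035, adjusted p = 4.90e-09) and rose by 0.22 in DKO MEFs (SE 0.035, adjusted p = 2.24e-05). The interaction of 0.66 (SE 0.049, adjusted p = 7.82e-09) was the highest of the 38 genes. DKO MEFs were lower without etoposide, at -0.31 (adjusted p = 7.03e-07) and higher after it, at 0.36 (adjusted p = 8.39e-08).

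The promoter of Psme3 is shown because it moved in opposite directions in the 2 genotypes. Its window, chr11:101315963-101316262 on the plus strand of GRCm38.p6 (RefSeq), holds CACGTG, the E-box letters bound by TFEB and TFE3, and CCAAT on the minus strand, where it reads ATTGG, both in capitals. CACGTG reads the same on both strands. It was found in 3 of 36 windows of proteasome genes (8.33%), those of Psma4, Psmd9 and Psme3, and in 8.05% of 20788 promoters. These matches describe letters in the window, and binding was not measured here.
Psme3: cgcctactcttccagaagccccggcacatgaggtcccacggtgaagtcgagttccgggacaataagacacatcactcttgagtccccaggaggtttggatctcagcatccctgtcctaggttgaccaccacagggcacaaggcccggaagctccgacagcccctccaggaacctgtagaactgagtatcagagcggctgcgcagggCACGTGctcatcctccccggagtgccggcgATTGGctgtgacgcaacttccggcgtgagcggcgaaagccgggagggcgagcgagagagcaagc

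With TMM, Psme4 had the largest change of any proteasome gene, -0.70 with etoposide in DKO MEFs. That value was -0.42 with library size alone, and Psmc1 with etoposide in Null MEFs was at 0.71. Psme4 encodes PA200, a cap known for acetylated histones and for DNA damage. Its levels were 189, 189 and 185 CPM in Null control, 137, 136 and 127 CPM in Null etoposide, 220.1, 220.2 and 232 CPM in DKO control and 138, 137 and 139 CPM in DKO etoposide libraries. Every etoposide library lay below every control library, the genotypes differed without etoposide, and they overlapped after it. The fall was -0.49 in Null MEFs (SE 0.037, adjusted p = 2.33e-09) and -0.70 in DKO MEFs (SE 0.037, adjusted p = 3.16e-11), to 0.616 of the control level. DKO MEFs were higher by 0.26 without etoposide (adjusted p = 1.01e-05), and the difference was 0.050 after it (adjusted p = 0.242), or -0.0100 with the size factors of DESeq2. The interaction was -0.21 (adjusted p = 0.0030), and -0.10 with library size alone (adjusted p = 0.119).

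Psme1 and Psme2 encode the alpha and beta subunits of PA28, the cap linked to antigen processing. Psme1 stood at 55.0, 54.2 and 51.2 CPM in Null control, 52.5, 53.4 and 57.9 CPM in Null etoposide, 51.7, 49.2 and 50.2 CPM in DKO control and 44.8, 43.9 and 45.5 CPM in DKO etoposide libraries. Psme2 stood at 47.2, 44.7 and 44.8, 44.8, 47.0 and 48.8, 53.4, 51.3 and 48.2 and 42.1, 43.2 and 45.8 CPM in the groups in the same order. For both genes the DKO etoposide libraries were below the DKO control libraries and the Null conditions overlapped. In DKO MEFs the change was -0.17 for Psme1 (adjusted p = 0.00192) and -0.22 for Psme2 (adjusted p = 5.22e-04), which turned to 0.10 and 0.052 with library size alone. The interactions of -0.20 and -0.26 (adjusted p = 0.0100 and 0.00332) became -0.095 and -0.16 on that scale and no longer passed the threshold.

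Psme1 was lower in DKO than in Null MEFs after etoposide (-0.29, adjusted p = 1.33e-05), and without etoposide the difference was -0.087 (adjusted p = 0.0850), past the threshold without Null_control replicate 3 (-0.12) and with library size alone (-0.21). Psme2 was higher in DKO MEFs without etoposide (0.16, adjusted p = 0.00629), a call lost with library size alone (0.041). After etoposide its difference was -0.10 (adjusted p = 0.0704), past the threshold without Null_etoposide replicate 1 (-0.14) and without DKO_etoposide replicate 3 (-0.15). It was also past the threshold with the size factors of DESeq2 (-0.16) and with library size alone (-0.12). Of the 75-base stretches of Psme2, 22.9% also occur in Psme2b, which itself had 37.4, 35.9 and 36.9 CPM in Null control libraries. Its means were 36.7 CPM in the Null etoposide, 44.2 in the DKO control and 37.7 in the DKO etoposide group. With TMM Psme2b, as Psme2, was called lower with etoposide in DKO MEFs and below 0 in the interaction. It was also called higher in DKO than in Null MEFs without etoposide.

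**Figure D4:**
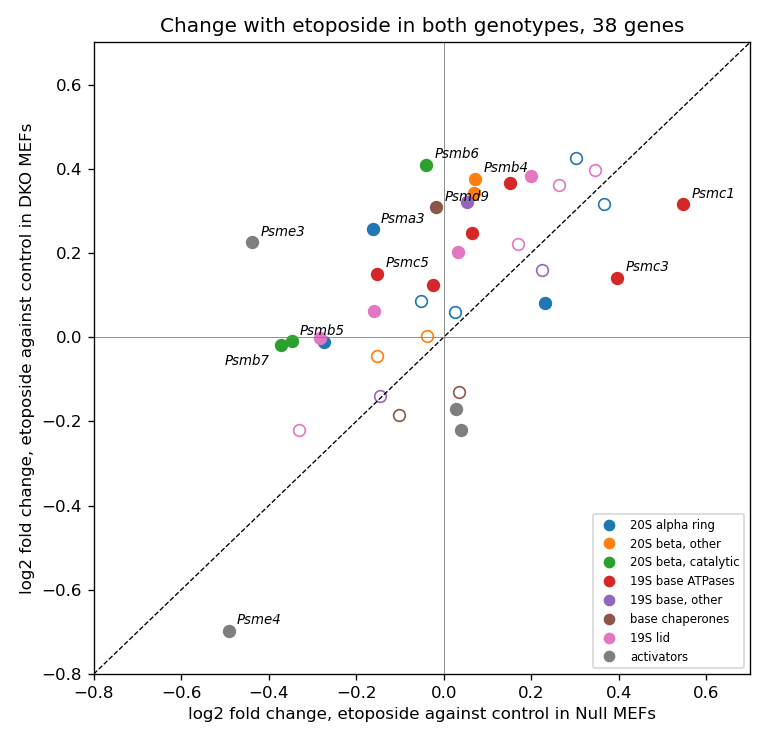
Log2 fold change with etoposide in Null MEFs (horizontal axis) against that in DKO MEFs (vertical axis) for 38 proteasome subunit genes, coloured by role, with filled points where the interaction had an adjusted p under 0.05 and the dashed line where both changes are equal. The axes share the same scale but not the same control libraries. Psme3 lies at -0.44 and 0.22, Psmb6 at -0.040 (0.13 with library size alone) and 0.41, and Psme4 at -0.49 and -0.70.

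The immunoproteasome subunits left out of the list replace the 3 catalytic beta subunits in cells that respond to interferon. Psmb9 stood at 7.08, 7.02 and 7.12 CPM in Null control, 12.4, 10.8 and 12.8 CPM in Null etoposide, 2.81, 3.01 and 2.55 CPM in DKO control and 5.69, 5.98 and 5.21 CPM in DKO etoposide libraries. It was lower in every DKO library than in every Null library of the same condition, at -1.33 without and -1.09 after etoposide, and it rose with etoposide by 0.76 in Null and 1.00 in DKO MEFs. Psmb10 was higher in DKO MEFs by 0.38 without and 0.46 after etoposide, and Psmb8 was lower, at -0.21 without it. None of the 3 had an interaction past the edgeR threshold, where 29.9% of all genes were above 0 and 24.7% below. The values were 0.24 for Psmb9, 0.073 for Psmb10 and 0.051 for Psmb8, or -0.013 for Psmb8 with the size factors of DESeq2. The interaction of Psmb9 was 0.35 and past the threshold with library size alone.

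The assembly factors of the core include 4 alpha ring chaperones and Pomp. Of these 5 genes, 1 rose and 2 fell with etoposide in Null MEFs, where 41.7% of all genes rose and 36.8% fell. With library size alone 3 rose and 1 fell there, beside 7656 and 4350 of 15220 genes. In DKO MEFs 4 of the 5 rose with TMM, where 44.0% of all genes rose. An interaction above 0, seen for 29.9% of all genes, was found for 4 of the 5. Psmg1 to Psmg4, the chaperones of the alpha ring, all had interactions above 0: 0.47 for Psmg1 (adjusted p = 9.75e-05), 0.56 for Psmg2 (adjusted p = 8.71e-07), 0.36 for Psmg3 (adjusted p = 0.00334) and 0.49 for Psmg4 (adjusted p = 7.80e-05). In DKO MEFs Psmg2, Psmg3 and Psmg4 rose with etoposide by 0.39, 0.40 and 0.58, and in Null MEFs Psmg1 (-0.35) and Psmg2 (-0.17, or -0.0023 with library size alone) fell. Pomp, which helps to join the beta subunits into the core, rose in both genotypes (0.26 and 0.24), and its interaction was -0.022 (adjusted p = 0.739), or 0.084 with library size alone.

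Another 11 genes encode proteins that belong to the 26S proteasome, bind it or carry substrates to it. Among them are the 19S subunit genes Adrm1 and Shfm1, whose symbols fall outside the rule. Of the 11, 2 rose and 7 fell with etoposide in Null MEFs, and 3 rose and 3 fell in DKO MEFs. Of all genes with TMM, 41.7% rose and 36.8% fell in Null, and 44.0% rose and 31.3% fell in DKO MEFs. With library size alone 3 of the 11 rose and 4 fell in Null MEFs, beside 7656 and 4350 of 15220 genes. In DKO MEFs 7 rose and 2 fell on that scale, beside 9351 and 2975. The interaction was above 0 for 5 of the 11 and below 0 for 1, where 29.9% of all genes were above and 24.7% below. Ecpas, listed under its older symbol AI314180, an adaptor of the 26S particle, fell by 1.09 in Null and 0.49 in DKO MEFs, with an interaction of 0.61 (adjusted p = 3.81e-07). Rad23b, a shuttle for ubiquitinated proteins, fell by 0.74 and 0.69. Psmf1, the inhibitor PI31, rose by 0.57 and 0.46. Uchl5, a deubiquitinase of the 19S particle, was higher in DKO MEFs after etoposide by 0.64 (adjusted p = 3.31e-08).

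The unfoldase p97 extracts ubiquitinated proteins before their degradation. Its gene Vcp changed by 0.063 in Null and 0.11 in DKO MEFs (adjusted p = 0.473 and 0.219), or by 0.23 and 0.38, both past the threshold, with library size alone. Of the 7 genes for p97 and its cofactors, 2 rose and 4 fell with etoposide in Null MEFs (3 and 3 with library size alone), and 2 rose and 3 fell in DKO MEFs (6 and 1). The shares of all genes with TMM were 41.7% and 36.8% in Null, and 44.0% and 31.3% in DKO MEFs. With library size alone 7656 of 15220 genes rose and 4350 fell in Null MEFs, and 9351 rose and 2975 fell in DKO MEFs. Faf1 had the strongest fall, of -1.56 in Null and -1.16 in DKO MEFs, and Ubxn1 rose by 0.86 and 0.33. For the list as a whole 3 interactions were above 0 and 2 below, where 29.9% of all genes were above and 24.7% below. With the size factors of DESeq2 these were 1 and 2, beside 3862 and 4236 of all genes. Faf1 had 0.40 and Ubxn1 -0.53.

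NFE2L1 is the transcription factor known to raise proteasome genes when proteasome activity is low. Its mRNA, Nfe2l1, stood at 524, 522 and 545 CPM in Null control, 277, 270.0 and 274 CPM in Null etoposide, 522, 539 and 535 CPM in DKO control and 420.1, 446 and 433 CPM in DKO etoposide libraries. The genotypes overlapped without etoposide, and after it every DKO library was above every Null library. Nfe2l1 fell by 0.96 in Null MEFs (log2 -0.96, SE 0.032, adjusted p = 4.16e-14) and by 0.30 in DKO MEFs (log2 -0.30, SE 0.031, adjusted p = 2.54e-07), though the DKO value was -0.024 and not past the threshold with library size alone. The interaction was 0.66 (adjusted p = 2.46e-09). Ngly1 and Ddi2, which encode the glycanase and the protease that process NFE2L1, had interactions of 0.45 (adjusted p = 2.74e-04) and 0.31 (adjusted p = 0.00534). Both were lower with etoposide in Null MEFs, at -0.29 and -0.27, calls lost with library size alone (-0.12 and -0.10).

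Of all 10 genes of the NFE2L1 list, 2 rose and 6 fell in Null MEFs, 3 rose and 5 fell in DKO MEFs, and 6 interactions were above 0 and 1 below. On the scale of library size alone, 3 rose and 4 fell in Null MEFs, beside 7656 and 4350 of 15220 genes. In DKO MEFs 4 rose and 2 fell on that scale, beside 9351 and 2975. Among all genes tested with TMM, 41.7% rose and 36.8% fell in Null MEFs, 44.0% rose and 31.3% fell in DKO MEFs, and 29.9% of interactions were above 0 and 24.7% below. The gene below was Mafk, which encodes a small Maf partner of NFE2L1. It stood at 87.5, 82.4 and 85.1 CPM in Null control, 201, 201 and 209 CPM in Null etoposide, 124, 124 and 119 CPM in DKO control and 104, 98.4 and 106 CPM in DKO etoposide libraries. Null etoposide libraries were the highest and Null control libraries the lowest. Mafk rose by 1.26 in Null MEFs (adjusted p = 1.59e-14), changed by -0.25 in DKO MEFs (adjusted p = 2.02e-05), or 0.024 with library size alone, and had an interaction of -1.51 (adjusted p = 1.34e-12). Nfe2l2, which encodes NRF2, fell in both genotypes by 0.52 and 0.55. Whether these mRNAs have a part in the changes of the proteasome genes was not tested.

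The 40 proteasome genes are spread over 16 chromosomes. Some lie near each other on chromosome 14. Psmb5 (54614119 to 54618022) lies near Psmb11 (54621433 to 54629556), and Psme1 (55578123 to 55581529) near Psme2 (55587441 to 55591113). Distances between the other genes were not examined. Of the 40 genes, 19 have at least 1 stretch of 75 bases that also occurs in another gene. For 6 such stretches make up more than 10%: Psma3, Psma5, Psmb3, Psmb5, Psmd9 and Psme2. The search covered both strands, so a gene that overlaps at the same place also counts as another gene. For Psmd9 that gene is Gm26745, the antisense gene at its own place. Counts of these genes may hold reads from the other gene, and those with copies elsewhere may miss reads that align to both.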

How the data were processed

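The deposited values are raw counts per gene, made by the authors from paired reads of stranded total RNA. The labels name HISAT2, featureCounts and mm10, while the paper describes HTSeq, and the table ends in 5 summary lines of the HTSeq kind, which were left out. Neither source gives the strand setting. Of 24421 genes, 27 have symbols that look like dates and were kept as they are.

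Libraries were grouped by their labels into 4 groups of 3. Genes were filtered with filterByExpr, which kept 15220, scaled by TMM and tested in 1 model of 12 libraries with the quasi-likelihood F test of edgeR 4.0.16 in R 4.3.3. P-values were two-sided and adjusted by the Benjamini-Hochberg method within each of 5 comparisons. SE is the absolute log2 fold change divided by the square root of F. CPM used the TMM-scaled library size.

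Alternatives tried were DESeq2 1.42.0, limma-trend (limma 3.58.1), DESeq2 size factors in edgeR, library size alone, no filter on low counts, a mean of at least 1 CPM, a replicate block, only the 6 libraries of a comparison, each library left out in turn, sums without the most abundant gene, and a shorter promoter window.

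The proteasome genes chosen to be named with values in every library were Psmb5, Psmb6, Psmb7, Psmd14, Psme1 to Psme4, Psma8, Psmb11 and, in each comparison, the 3 highest and 3 lowest past the threshold, 22 in all. All other genes were named after their values were seen, apart from those that check labels and cell type, and Psmb9, Nfe2l1 and Mafk among them also have values in every library. The proteasome genes and the other lists were chosen with earlier results of these data known. Exon lengths and shared 75-base stretches came from GENCODE transcripts, promoters from RefSeq. Paaf1 was not analysed here, and some results on genes outside the proteasome list are not reported here.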

Additional observations from a re-analysis of the deposited data

Results flagged for a closer look

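The interaction test of edgeR picked 14 of the named proteasome genes, whose change with etoposide differed between Null and DKO MEFs at an adjusted p under 0.05. The change was more positive in DKO MEFs for Psme3 (0.66), Psmb6 (0.45), Psma3 (0.42), Psmb7 (0.35), Psmb5 (0.34), Psmd9 (0.33), Psmd4 (0.27), Psma5 (0.26) and Psmd3 (0.18). It was more negative in DKO MEFs for Psme2 (-0.26), Psmc3 (-0.26), Psmc1 (-0.23), Psme4 (-0.21) and Psme1 (-0.20). The calls of Psma3, Psmd3, Psme1, Psme2 and Psme4 were not kept in every setting. Among all genes tested, 29.9% had an interaction above 0 and 24.7% below 0 at the same threshold. The named genes include the 3 highest and the 3 lowest values past the threshold in each comparison, this one among them, so they were partly chosen by the value shown. Why these genes differed was not tested.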

How the results depend on the processing

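Of 1500 values of the named proteasome genes under other settings, 1425 kept their side of the threshold, 23 were no longer past it and 41 were newly past it. Of the 1425, 44 changed sign without being past the threshold in either setting. The other 11 changed sign and were past the threshold in at least 1 of the 2 settings, all with library size alone. These were Psmb6 (0.13) and Psmd9 (0.15) for etoposide in Null MEFs. For etoposide in DKO MEFs they were Psmb5 (0.26), Psmb7 (0.25), Psmd14 (0.053), Psme1 (0.10), Psme2 (0.052), Psmd10 (0.14) and Psma5 (0.26). For DKO against Null MEFs without etoposide they were Psmd14 (-0.098) and Psma1 (-0.019).

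With library size alone, the median of the proteasome genes was 0.20 for etoposide in Null MEFs, 0.42 for etoposide in DKO MEFs, -0.16 for DKO against Null without etoposide and 0.23 for the interaction. There were 25 higher and 7 lower genes with etoposide in Null MEFs, beside 7656 and 4350 of all genes. In DKO MEFs there were 35 and 1, beside 9351 and 2975. Without etoposide 5 were higher in DKO against Null, beside 3997, and 2 were below 0 in the interaction, beside 3110. The summed level was 5453 CPM in Null_control, 4807 in DKO_control, 6320.1 in Null_etoposide and 6472 in DKO_etoposide libraries. With DESeq2 and with its size factors in edgeR, the median was 0.073 for etoposide in Null MEFs, -0.0012 for DKO against Null after etoposide and 0.066 for the interaction, and the size factors gave a summed level of 5975 CPM in Null_etoposide libraries.

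With a mean of at least 1 CPM, 19 genes were higher and 7 lower with etoposide in Null MEFs, beside 4987 and 4830 of all genes so kept. The median was 0.11 there, 0.18 for etoposide in DKO MEFs, -0.0056 for DKO against Null after etoposide and 0.079 for the interaction. The median for etoposide in DKO MEFs was 0.12 with no filter other than a count above 0 in 1 library, and 0.12 with only the 6 libraries of the comparison. The most abundant gene was Psmd2, and leaving a gene out of a sum always lowers it by the level of that gene. Without Psmd2 the summed level was 5247 CPM in Null_control, 5021 in DKO_control, 5359 in Null_etoposide and 5592 in DKO_etoposide libraries. The 250 bases before the start alone held TGACNNNGC in 5, CACGTG in 3 and CCAAT in 13 windows.

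With 1 library left out, the median for etoposide ran from -0.029 to 0.023 in Null MEFs and from 0.11 to 0.15 in DKO MEFs. For the interaction it ran from 0.096 to 0.16. Without etoposide 7 to 9 proteasome genes were then higher in DKO than in Null MEFs, beside 4794 to 4907 of all genes. With etoposide the calls of proteasome genes kept in every setting were 11 higher and 7 lower in Null MEFs, and 19 and 1 in DKO MEFs. For DKO against Null they were 5 and 14 without etoposide and 12 and 7 after it, and for the interaction 12 and 2. No such count is given here for all genes, so these counts cannot be set against a background.

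The main model did not pair samples by replicate number. Libraries of the same number in different groups correlated at -0.032 to 0.043 after group means were removed, and those of different numbers at -0.047 to 0.048. For 4 of 12 libraries, the best match in every other group was the library of their own number. How often this would occur without pairing was not tested. With the replicate block, the median for etoposide in Null MEFs was 0.028 and all 23 calls there were kept. All 27 calls for etoposide in DKO MEFs were kept and 1 was added, and 22 of 24 interactions were kept. Calls over all genes with the block were 6300 higher and 5573 lower for etoposide in Null MEFs, against 6342 and 5598 without it. In DKO MEFs they were 6631 and 4743, against 6702 and 4757, and for the interaction 4473 and 3723, against 4553 and 3757. How many calls over all genes were kept was not counted.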
